A study of Homo sapiens with 8 samples.

Results

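The ATP-binding cassette (ABC) transporter family was examined in cells labelled Caco-2, a line from a human colorectal adenocarcinoma, with and without exogenous Siglec-XII. Members were the gene symbols made of ABC, a subfamily letter from A to G and a number. Where a symbol stood on more than 1 entry, the entry with the highest mean was taken. This gave 46 genes, on 55 of the 63816 entries of the table. Per the labels and the methods of the study, 4 samples held pcDNA3.1 without an insert (empty vector) and 4 held it with full-length human SIGLEC12 (Siglec-XII), both introduced as linearized plasmid with Lipofectamine and selected with G418, so that vector and antibiotic selection were common to both groups. The vector carries a constitutive viral promoter. Each group came from its own transfection and selection of stable clones, so clone and Siglec-XII cannot be told apart as sources of a difference. The sources give differing numbers of cultures per group and mention technical replicate libraries. Every p-value and interval here therefore reflects the spread between these libraries, which may be technical.

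ABC proteins couple ATP hydrolysis at paired nucleotide-binding domains to the movement of a substrate across a membrane. Subfamilies A and G mostly move lipids and sterols, B and C hold drug, bile salt and conjugate exporters as well as mitochondrial and channel-regulating members, and D works in peroxisomes and lysosomes. Subfamilies E and F have the ATPase domains but no membrane span, and act on ribosomes. In intestinal epithelium the family is best known for the apical efflux pumps ABCB1, ABCC2 and ABCG2 and for the sterol exporters ABCA1, ABCG5 and ABCG8.

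Expression was deposited as log2(TPM + 1), TPM standing for transcripts in 1000000. Each column, taken off the log scale, summed to 1000000, so the read depth behind a value is unknown and no interval from counts could be given. TPM is scaled by transcript length, which allows levels of different genes to be compared. SIGLEC12 was at 0.0795 ± 0.0342 TPM (SD, n = 4) with the empty vector and at 1670 ± 71.3 TPM (SD, n = 4) with Siglec-XII, in accord with the labels. Of 22 markers of colon epithelium, 14 were under 1 TPM in all samples, 5 of them at 0 throughout (KRT20, FABP1, SI, TFF3 and PHGR1), while CDX1 and CDX2 had means of 139 and 37.3 TPM with the empty vector. Of 16 trophoblast markers 12 passed the filter on low values. With the empty vector XAGE2, GATA3 and HSD3B1 had the highest means, 803, 402 and 344 TPM. TFAP2C, SIGLEC6, GATA2 and TFAP2A had means of 158, 134, 130 and 33 TPM, and CYP19A1 of 4.25 TPM. CGA, ERVW-1, ERVFRD-1 and PSG1 passed near the limit, with means of 0.982, 1.4, 1.33 and 1.35 TPM. GCM1 stayed under 1 TPM, and CGB3, CGB5 and LEP were near 0. None of 5 liver markers, 4 of 5 fibroblast markers and 1 of 4 leukocyte markers passed the filter. Summed marker levels ran from 8140 to 9100 TPM with the empty vector and from 9710 to 10100 TPM with Siglec-XII for colon epithelium, mostly from keratins, from 1990 to 2060 and from 1910 to 1950 TPM for trophoblast, from 67.2 to 82.5 and from 79.2 to 84.3 TPM for fibroblasts, and from 0.401 to 2.13 and from 0.841 to 1.65 TPM for leukocytes. The low colon markers and the expressed trophoblast markers go against the label in part, and the identity of the line was not tested. The part of these markers in the results below was not tested.

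No ABC gene passed the test between the groups. Of the 46 members, 22 (47.8%) reached 1 TPM in at least 4 samples and were tested, against 61.1% of all protein-coding entries, and 24 stayed below. Of the 22, 0 had an adjusted p under 0.05 in limma with Benjamini-Hochberg adjustment over all 15590 tested entries, where 0.648% of entries were called. The lowest adjusted p of a member was 0.199. At an unadjusted p of 0.05 or less, 3 of the 22 members were higher with Siglec-XII (ABCA7, ABCF1 and ABCF2), next to 13.9% of all tested entries, and 0 were lower, next to 2.61%. ABCF1 was counted by its chosen entry. With the entries of a symbol summed, 2 of 23 tested members were higher, and ABCF1 was not among them. The groups did not overlap in 0 of the 22 members, next to 10.8% of all tested entries. The log2 fold change was positive for 13 members and negative for 9, with a median of 0.03, and 68.1% of all tested entries were positive, with a median of 0.07.

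The levels of the family were steep. By the entry taken for each symbol, the 4 members above 50 TPM were ABCE1, ABCG2, ABCD3 and ABCF2, and together they held 57.0% of the TPM of the family. With the entries of a symbol summed, ABCF1 also lay above 50 TPM and had the highest mean, as described with it. There were 14 members above 10 TPM. At the other end, 11 of the 24 members below the filter had a mean under 0.1 TPM, and the highest log2(TPM + 1) of any of the 24 in any sample was 1.27. Summed over the 46 members, the family took 531, 588, 577 and 592 TPM in the empty vector samples and 597, 600, 583 and 613 TPM in the Siglec-XII samples. These sums overlapped between the groups, and their ratio of 1.05 came to 1 after upper quartile scaling.

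**Figure D1:**
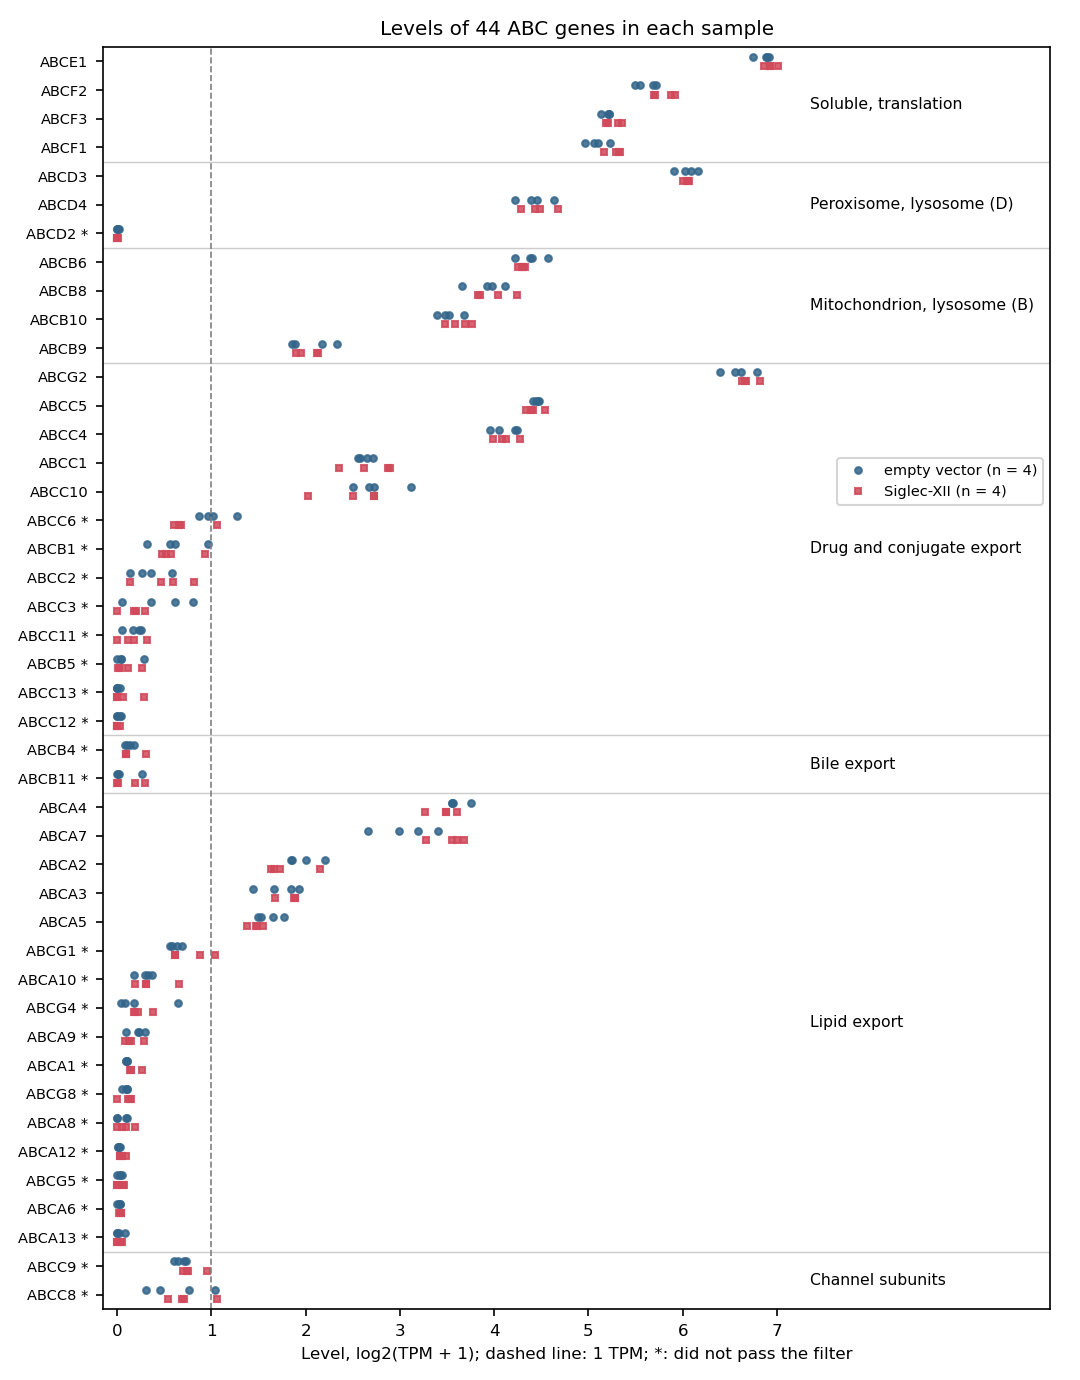
Levels of 44 of the 46 ABC genes on the log2(TPM + 1) scale (x axis), ordered by role and by mean level (y axis), with 1 point per sample, circles for the empty vector and squares for Siglec-XII. The symbols of both groups lie together in almost every row, and the 24 genes marked with an asterisk, which did not pass the filter, sit at or below 1.27.

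The soluble members that act in translation were the most abundant role. ABCE1 (ENSG00000164163, chromosome 4, 146019440 to 146050676 in GRCh37, plus strand) splits the ribosome after termination. Its level was 106, 117, 117 and 119 TPM in the empty vector samples and 121, 116, 128 and 121 TPM in the Siglec-XII samples. One empty vector sample was low and the groups overlapped, with a log2 fold change of 0.08 (95% interval -0.04 to 0.19, limma adjusted p = 0.482). ABCF2 (chromosome 7, 150908570 to 150924291, minus strand), a ribosome-associated ATPase, was at 50.2, 45.9, 51.5 and 43.9 TPM and then at 51.5, 59.7, 50.6 and 57.8 TPM. A pair of Siglec-XII samples stood above all others, and the remaining pair lay within the empty vector range. Its log2 fold change was 0.19 (95% interval 0.03 to 0.36, limma adjusted p = 0.245). ABCF3 (chromosome 3, 183903883 to 183911800, plus strand), another ribosome-associated ATPase, was at 34, 36.4, 35.9 and 36.4 TPM against 36.1, 40.1, 35.5 and 38.6 TPM, with overlapping groups and a log2 fold change of 0.07 (limma adjusted p = 0.552).

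ABCF1, which acts in translation initiation, stood on 7 entries of the table. Ensembl gives genes of the major histocompatibility region on chromosome 6 an identifier of their own for each alternative haplotype, and reads that fit several copies are divided among them. The entry taken by the rule (ENSG00000231129), identical in all samples to ENSG00000236342, was at 30.1, 33.2, 36.5 and 32.4 TPM with the empty vector and at 38, 39.1, 38.9 and 34.7 TPM with Siglec-XII. One Siglec-XII sample lay below the highest empty vector sample, and the log2 fold change was 0.19 (95% interval 0.03 to 0.34, limma adjusted p = 0.233). The entry of the primary assembly (ENSG00000204574, chromosome 6, 30539170 to 30564956 in GRCh37, plus strand) was at 42.5, 31.3, 21 and 19.7 TPM and at 26.6, 18.8, 21.5 and 28.4 TPM, with a log2 fold change of the other sign, -0.21 (95% interval -0.73 to 0.31, limma adjusted p = 0.693). That entry held between 14.5% and 28.0% of the sum of the 7 entries.

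Summed over its 7 entries, ABCF1 was at 152, 134, 133 and 117 TPM with the empty vector and at 147, 129, 143 and 130 TPM with Siglec-XII. The groups overlapped fully, and the log2 fold change of the sum was 0.04 (95% interval -0.14 to 0.22, limma adjusted p = 0.853). The 0.19 of the chosen entry thus stood beside 0.04 for the total. On this summed scale ABCF1 had means of 134 and 137 TPM, next to 115 and 121 TPM for ABCE1, and the ranges of both genes overlapped.

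**Figure D2:**
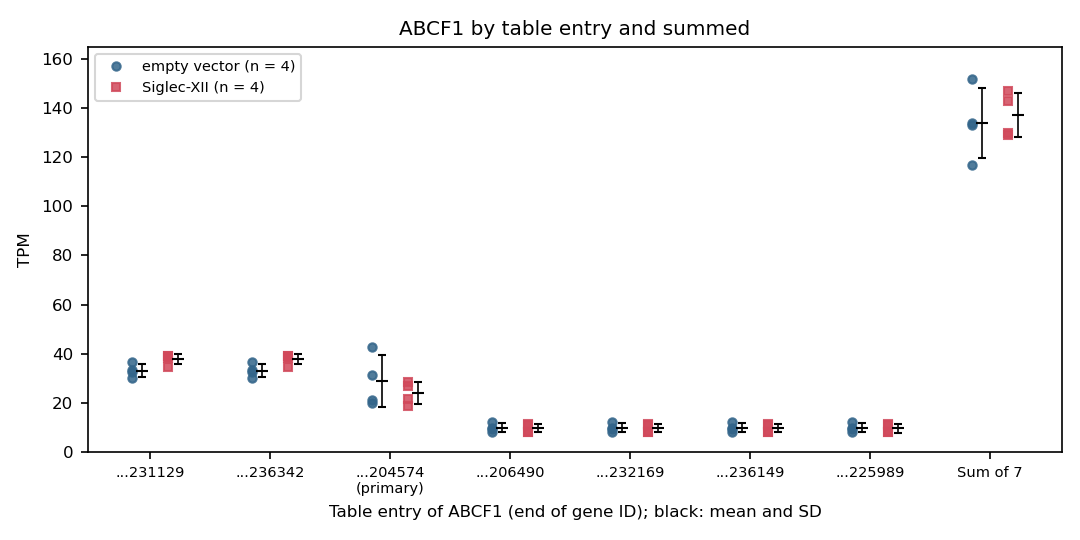
TPM of ABCF1 (y axis) in each of its 7 table entries and summed over them (x axis), with 1 point per sample and the mean and SD of 4 samples per group in black. The leading pair of entries was higher in 3 of 4 Siglec-XII samples than in any empty vector sample, the primary entry varied most between samples, and the sums of the groups overlapped.

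Taken as a role, the 4 soluble members summed to 220, 232, 241 and 232 TPM with the empty vector and to 246, 254, 253 and 252 TPM with Siglec-XII. Every Siglec-XII sum lay above every empty vector sum, with a ratio of means of 1.09. Without ABCF1 the sums ran from 190 to 205 TPM and from 208 to 217 TPM. With ABCF1 counted over all its entries they ran from 316 to 342 TPM and from 345 to 356 TPM, a ratio of 1.06. These sums carry no test, the roles having been drawn up with results known, and over all tested entries the median log2 fold change was 0.07. Among single entries, 10.8% of all tested did not overlap between the groups. The role sums were not computed after other scaling. With equal upper quartiles the log2 fold changes of ABCE1, ABCF1, ABCF2 and ABCF3 were 0.02, 0.13, 0.13 and 0.01. Before that scaling they were 0.08, 0.19, 0.19 and 0.07.

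Subfamily D works mainly in the peroxisome. ABCD3 (chromosome 1, 94883945 to 94984222, plus strand) imports branched-chain and dicarboxylic acyl-CoA and bile acid precursors. It was at 59.2, 63.9, 67.2 and 70.7 TPM with the empty vector and at 66.2, 63.1, 65.6 and 64.8 TPM with Siglec-XII. The Siglec-XII samples all lay inside the empty vector range, and the log2 fold change was 0.00 (95% interval -0.14 to 0.13, limma adjusted p = 0.977). ABCD4 (chromosome 14, 74751972 to 74769758, minus strand), needed for release of cobalamin from the lysosome, was at 17.6, 20, 20.8 and 23.8 TPM and at 24.5, 20.6, 18.4 and 21.4 TPM. The groups overlapped broadly, with a log2 fold change of 0.05 (95% interval -0.19 to 0.28, limma adjusted p = 0.863). ABCD2, another peroxisomal member, had the lowest mean of the family, 0.00423 TPM, and never exceeded 0.0163 TPM.

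All 5 organelle members of subfamily B passed the filter, 2 with a positive and 3 with a negative log2 fold change. ABCB6 (chromosome 2, 220074494 to 220083716, minus strand), a porphyrin transporter, was at 22.8, 20.1, 19.8 and 17.7 TPM with the empty vector and at 18.1, 18.5, 19.1 and 18.9 TPM with Siglec-XII. The Siglec-XII samples were tightly placed within the empty vector range, and the log2 fold change was -0.10 (95% interval -0.27 to 0.07, limma adjusted p = 0.559). ABCB8 and ABCB10 of the inner membrane had means of 14.6 and 10.9 TPM, and the lysosomal peptide transporter ABCB9 had a mean of 3.15 TPM. Their log2 fold changes were 0.07, 0.11 and -0.04.

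Among the exporters of drugs and conjugates, ABCG2 was far above the others. ABCG2 (ENSG00000118777, chromosome 4, 89011302 to 89152780, minus strand), the breast cancer resistance protein, exports drugs and urate and is also abundant in placenta. It was at 83.7, 110, 92.6 and 97.5 TPM with the empty vector and at 100, 101, 97.8 and 112 TPM with Siglec-XII. One empty vector sample was low, the ranges overlapped, and the log2 fold change was 0.10 (95% interval -0.08 to 0.28, limma adjusted p = 0.567). The other apical pumps of the enterocyte stayed under the filter. ABCB1, P-glycoprotein, ran from 0.245 to 0.944 TPM over the 8 samples, and ABCC2, the apical exporter of conjugates, ran from 0.103 to 0.764 TPM. The basolateral exporter ABCC3 ran from 0 to 0.758 TPM.

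Of the remaining conjugate exporters, ABCC5 and ABCC4, which export cyclic nucleotides, had means of 20.6 and 16.4 TPM and log2 fold changes of -0.03 and 0.00. ABCC10 (chromosome 6, 43395104 to 43418165, plus strand), a drug exporter, was at 4.65, 5.57, 5.38 and 7.69 TPM with the empty vector and at 5.63, 4.67, 3.09 and 5.63 TPM with Siglec-XII. The highest sample was in one group and the lowest in the other, with the rest intermixed. Its log2 fold change of -0.25 was the most negative of the 22 tested members on their chosen entries (95% interval -0.67 to 0.16, limma adjusted p = 0.525). ABCC1, the exporter of glutathione conjugates and leukotriene C4, stood on 2 entries and had a log2 fold change of 0.06 on its chosen entry and 0.05 on their sum (limma adjusted p = 0.866 and 0.794).

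ABCC6, which mediates ATP release and is mutated in pseudoxanthoma elasticum, stood on 2 entries, the primary one on chromosome 16, 16243422 to 16317379 in GRCh37, minus strand, and has near-identical pseudogene copies, so its level is uncertain. Neither entry passed the filter. Their sum, an alternative chosen after the data were seen, did, at 1.29, 2.27, 1.51 and 1.6 TPM with the empty vector and 0.863, 1.28, 1 and 1.26 TPM with Siglec-XII. All Siglec-XII sums lay below all empty vector sums, the closest pair being 1.28 and 1.29 TPM. Each of the 2 entries alone overlapped between the groups. Of all tested entries, 10.8% did not overlap. The log2 fold change of -0.34 did not pass the test (95% interval -0.68 to 0.00, limma adjusted p = 0.308).

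The lipid transporters held the largest difference among the 22 tested members. ABCA7 (ENSG00000064687, chromosome 19, 1039996 to 1065571, plus strand), a phospholipid transporter linked to phagocytosis, was at 5.33, 9.57, 6.94 and 8.11 TPM with the empty vector and at 10.7, 11.2, 8.73 and 11.8 TPM with Siglec-XII. The lowest Siglec-XII sample lay below the highest empty vector sample, and the other 3 lay above all empty vector samples. The log2 fold change was 0.47, a fold of 1.38 in TPM + 1 (95% interval of the log2 value 0.12 to 0.82, limma adjusted p = 0.199). ABCA4 (chromosome 1, 94458390 to 94586704, minus strand), the retinoid transporter of photoreceptors, was at 10.7, 10.7, 10.8 and 12.5 TPM and at 11.2, 10.2, 10.2 and 8.64 TPM. It was highest in an empty vector sample and lowest in a Siglec-XII sample, with a log2 fold change of -0.14 (95% interval -0.35 to 0.06, limma adjusted p = 0.471).

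ABCA2, ABCA3 and ABCA5, of lysosomes, endosomes and lamellar bodies, had means of 2.72, 2.45 and 1.92 TPM and log2 fold changes of -0.18, 0.12 and -0.14 (limma adjusted p = 0.58, 0.706 and 0.573). The sterol exporters did not reach the filter. ABCG1, which moves sterol towards high-density lipoprotein, ran from 0.473 to 1.05 TPM. ABCA1, which loads apolipoprotein A-I, was at 0.0723, 0.0723, 0.0764 and 0.0776 TPM with the empty vector and at 0.107, 0.105, 0.194 and 0.111 TPM with Siglec-XII. These ranges do not overlap, at levels where the reads behind a value are unknown, and with every entry above 0 tested the log2 fold change was 0.07 (95% interval -0.01 to 0.15, limma adjusted p = 0.623). Of the 39568 entries of that fit, 5.41% did not overlap between the groups, and ABCA1 was the only one of the 46 members to do so. The sterolin partners ABCG5 and ABCG8 had means of 0.0206 and 0.0694 TPM. The bile exporters ABCB4 and ABCB11 never exceeded 0.241 and 0.23 TPM.

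The sulfonylurea receptors, subunits of ATP-sensitive potassium channels, were also low. ABCC9 ran from 0.516 to 0.926 TPM and ABCC8 from 0.239 to 1.09 TPM. The genes of their pore partners KCNJ8 and KCNJ11 both passed the filter, with log2 fold changes of 0.03 and 0.08 (limma adjusted p = 0.912 and 0.9).

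The precision of these values sets what could have been seen. The 95% intervals of the tested members had half-widths of 0.12 to 0.42 on the log2 scale. For 19 of the 22 the whole interval lay within 0.5 of 0, a fold of 1.41, and for all 22 it lay within 1, a fold of 2. The exceptions to the narrower limit were ABCA2, ABCA7 and ABCC10. ABCF1 was counted on its chosen entry, and the interval of its primary assembly entry ran from -0.73 to 0.31. The intervals describe the difference between these libraries and do not separate Siglec-XII from clone. On the log2(TPM + 1) scale the change of low genes is understated. Fewer cells with a transcript and less transcript per cell cannot be told apart in these bulk samples.

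**Figure D3:**
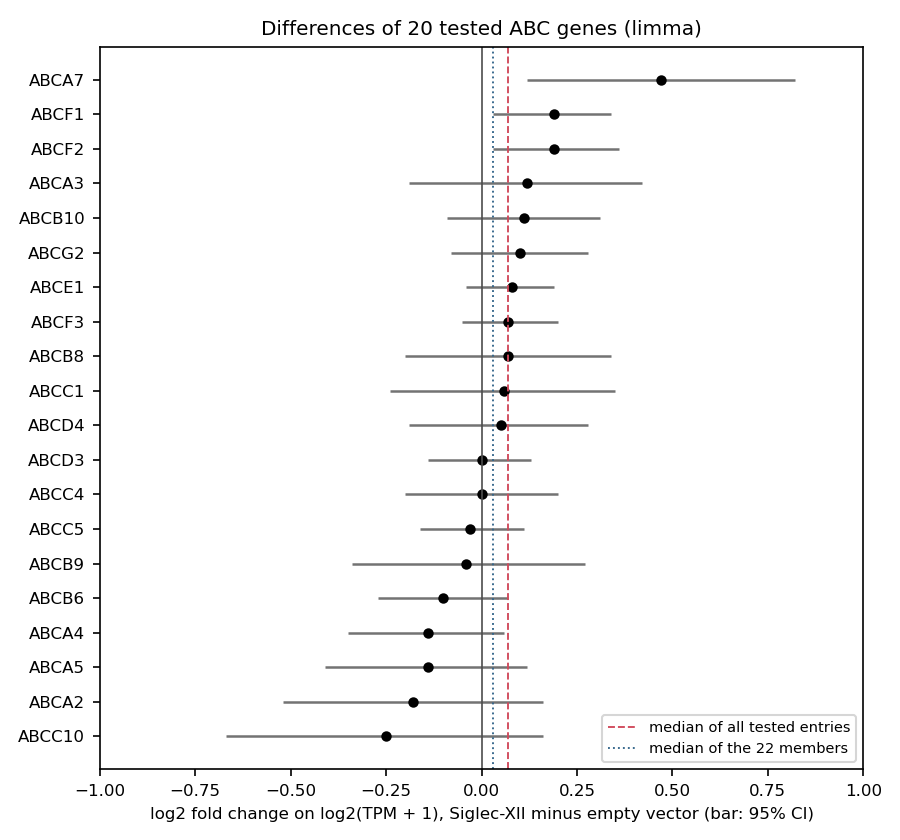
Log2 fold changes on the log2(TPM + 1) scale, Siglec-XII minus empty vector (x axis), of 20 of the 22 tested ABC genes (y axis), as points with limma 95% intervals as bars. Values run from -0.25 for ABCC10 to 0.47 for ABCA7, the medians of the family (0.03) and of all tested entries (0.07) are drawn as vertical lines, and 3 intervals lie wholly above 0. ABCF1, with 1 of these 3 intervals, is drawn by its chosen entry.

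Genes that work with the family were read from the same fit. The ABC proteins that carry other symbols, the chloride channel CFTR and the antigen peptide transporters TAP1 and TAP2, had log2 fold changes of 0.12, 0.31 and 0.06 (limma adjusted p = 0.623, 0.417 and 0.769). Of 18 regulators of ABC genes 13 were tested, 10 with a positive and 3 with a negative fold change, and 4 of the 13 were higher at an unadjusted p of 0.05 or less, next to 13.9% of all tested entries, with none past the adjusted threshold. The 4 were NR1H2, a liver X receptor, its partner RXRA, PPARA and FOXO3, with log2 fold changes of 0.19, 0.26, 0.25 and 0.23 (limma adjusted p = 0.261, 0.141, 0.197 and 0.148). NR1I2, the xenobiotic sensor that induces ABCB1, was at 0 in all samples. The mean of HNF4A, a regulator of enterocyte genes, was at most 0.103 TPM in either group.

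Targets of the liver X receptors outside the family were all abundant, and 6 of 7 had a positive fold change, next to 68.1% of all tested entries. At an unadjusted p of 0.05 or less 5 of 7 were higher, next to 13.9%. SCD, the stearoyl-CoA desaturase, was at 300, 316, 310 and 326 TPM with the empty vector and at 365, 354, 392 and 381 TPM with Siglec-XII. All Siglec-XII samples lay above all empty vector samples, and the log2 fold change of 0.25 passed the threshold narrowly (95% interval 0.15 to 0.36, limma adjusted p = 0.0489). Over 18 alternatives that adjusted p ran from 0.0362 to 0.153 and was under 0.05 in 3. The remaining members were LPCAT3, PLTP, MYLIP and FASN, with log2 fold changes of 0.22, 0.19, 0.18 and 0.18, and APOE and SREBF1, at 0.04 and 0.00. These remaining members were not read over the alternatives. With equal upper quartiles the median log2 fold change of all tested entries was 0.01, in place of 0.07. The family's own targets ABCA1 and ABCG1 are described above.

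The other partner lists were counted at an unadjusted p of 0.05 or less, where 13.9% of all tested entries were higher and 2.61% lower with Siglec-XII. Of 10 sterol traffic partners, 7 were tested, 2 of the 7 were higher (NPC1 and SOAT1) and 1 was lower (NPC2). Of the 9 ribosome recycling partners of ABCE1, 3 were higher (GSPT1, EIF2S1 and EIF2AK4) with log2 fold changes of 0.12, 0.14 and 0.15. Of 8 peroxisome partners 2 were higher (PEX19 and ACSL1), of 10 mitochondrial iron and haem partners 2 were higher (GLRX5 and ALAS1), and of 4 lysosomal cobalamin partners 1 was lower (LMBRD1, a partner of ABCD4, at -0.16). Of 16 organic anion carriers and conjugating enzymes 9 were tested and 1 was higher (GSTP1, at 0.17). None of these partners had an adjusted p under 0.05 in limma.

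The division of the family into expressed and near-silent members was also set against promoter sequence. RefSeq promoters (GRCh38.p14, the 250 bases before a start site) were matched by symbol for 35 members, and for members with several the one with most CG dinucleotides was read. The 11 members with no promoter matched included ABCA4, ABCA8, ABCB4, ABCB5, ABCC1, ABCC3, ABCC8, ABCC13 and ABCG1. Shown are the most abundant members by their chosen entry, ABCE1 and ABCG2, and a pair of intestinal and liver exporters below the filter, ABCC2 and ABCB11, read 5′ to 3′ on the strand of the gene with each CG in capitals. ABCE1 (chr4:145098061-145098310, plus strand) holds 24 of them, ABCG2 (chr4:88158640-88158889, minus strand) 32, ABCC2 (chr10:99782390-99782639, plus strand) 1 and ABCB11 (chr2:169031325-169031574, minus strand) 2. ABCC2 and ABCB11 lie below the median of 7 of the 17 members with a promoter that did not pass the filter. ABCC6, the most abundant of those 17 by its chosen entry, holds 22.
ABCE1: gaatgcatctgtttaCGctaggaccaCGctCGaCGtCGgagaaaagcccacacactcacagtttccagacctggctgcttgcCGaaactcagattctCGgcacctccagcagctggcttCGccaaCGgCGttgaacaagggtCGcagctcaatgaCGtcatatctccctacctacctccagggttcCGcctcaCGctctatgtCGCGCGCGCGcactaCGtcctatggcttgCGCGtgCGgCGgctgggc
ABCG2: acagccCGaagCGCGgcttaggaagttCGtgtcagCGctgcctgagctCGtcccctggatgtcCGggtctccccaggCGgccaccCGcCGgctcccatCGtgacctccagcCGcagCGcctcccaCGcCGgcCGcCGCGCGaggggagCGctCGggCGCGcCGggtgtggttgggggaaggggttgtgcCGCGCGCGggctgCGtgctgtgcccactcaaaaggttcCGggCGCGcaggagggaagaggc
ABCC2: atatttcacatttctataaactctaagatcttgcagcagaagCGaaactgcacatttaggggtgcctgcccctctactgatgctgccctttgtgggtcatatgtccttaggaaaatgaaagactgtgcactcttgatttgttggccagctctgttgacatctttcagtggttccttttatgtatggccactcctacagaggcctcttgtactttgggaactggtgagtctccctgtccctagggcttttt
ABCB11: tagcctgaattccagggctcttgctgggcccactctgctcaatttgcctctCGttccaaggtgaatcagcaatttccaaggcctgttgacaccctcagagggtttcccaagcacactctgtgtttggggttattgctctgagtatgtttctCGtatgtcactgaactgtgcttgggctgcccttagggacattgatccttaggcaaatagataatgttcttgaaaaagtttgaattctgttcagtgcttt

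Among the 18 tested members with a promoter the median was 28 CG dinucleotides (13 to 54), and 17 of them (94.4%) had at least 15. Among the 17 members below the filter the median was 7 (1 to 25), and 5 (29.4%) had at least 15. The 5 were ABCA1, ABCC6, ABCC9, ABCC11 and ABCG4. Of these, ABCC6 was below the filter on each entry, while the sum of its entries passed. The GC box GGGCGG, on either strand, was found in 15 of 18 (83.3%) and in 5 of 17 (29.4%), and TATAAA on either strand in 1 of 18 and in 4 of 17. Over the 27305 symbols with a RefSeq promoter, read at the promoter with most CG dinucleotides in the same way, 46.4% had at least 15, 44.9% the GC box and 10.7% TATAAA. Over all 35116 promoters the shares were 42.9%, 42.6% and 10.7%. The GC box contains a CG dinucleotide, so those counts overlap. The same division held for protein-coding genes at large, where 82.4% of 9521 tested symbols and 32.1% of 5322 untested symbols had at least 15, so it is not particular to the family. Among these tested and untested symbols the GC box was found in 74.4% and 37.6%, and TATAAA in 3.99% and 16.1%.

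**Figure D4:**
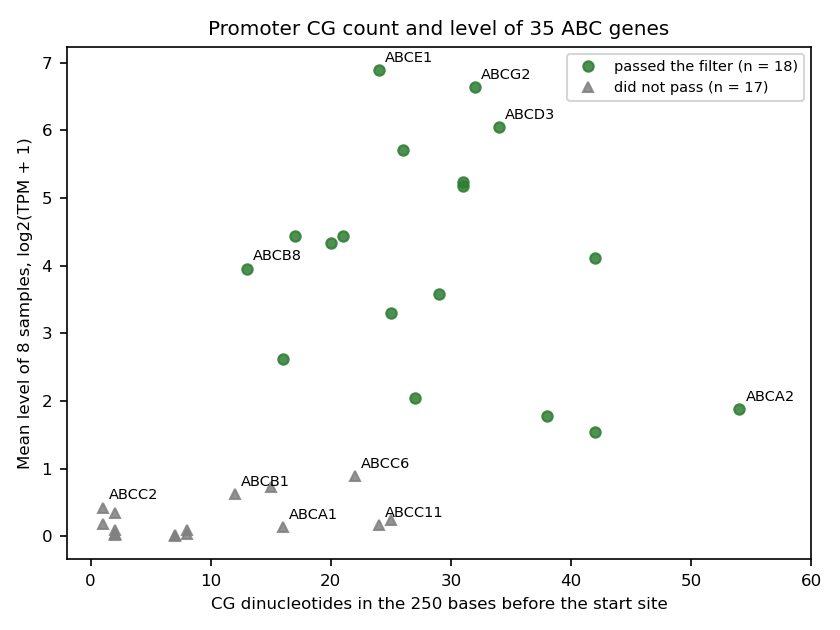
Mean level of the 8 samples on the log2(TPM + 1) scale (y axis) against the number of CG dinucleotides in the 250 bases before the start site (x axis) for the 35 ABC genes with a promoter, circles for the 18 that passed the filter and triangles for the 17 that did not. Genes with fewer than 13 CG dinucleotides all lie below the filter, while those with more are found both above and below it.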

How the data were processed

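RNA was sequenced from 4 empty vector and 4 Siglec-XII samples of cells labelled Caco-2. The authors quantified reads with kallisto against hg19 (version 0.45.0 per the submitters' processing notes) and deposited log2 values of TPM plus 1 for 63816 entries. The labels name a total RNA kit and the methods an mRNA kit. TPM depends on the annotated transcripts and, for near-identical copies, on how reads were divided, and is relative to the rest of the RNA of a sample. Depth per sample cannot be read from the file.

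Groups were compared on the deposited log2 values (pseudocount 1) with limma 3.58.1 in R 4.3.3 (lmFit, eBayes with trend, two-sided, Benjamini-Hochberg adjustment) over the 15590 entries at 1 TPM or more in at least 4 samples, and the code was tested on simulated data. The count test of the study could not be used on these values. The members, roles and gene lists, the limit of 15 CG dinucleotides and the promoter windows were chosen with earlier results of these data known. Values in every sample are given for members among the 8 lowest p or the 8 highest means. Of entries tied for a symbol, the lowest identifier was taken. Gene IDs of 55485 entries were in GENCODE v44lift37, which gave GRCh37 positions. The alternatives were another pseudocount (0.1), other filters (any value above 0, a mean of 5 TPM), quantile and upper quartile scaling, abundant or small RNAs left out, a replicate block, no trend, each sample left out and, added after seeing the data, entries of 1 symbol summed. A pair of members and a regulator are counted but not reported here by name. Figures were drawn with matplotlib 3.10.9.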

Additional observations from a re-analysis of the deposited data

Results flagged for a closer look

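In 46 groups of 4 samples (22 tested members plus 1 summed level, in both groups), 2 samples stood apart from the other 3 by the limit of Dixon's test at the 95% level. Chance gives about 1 such sample in 20 groups. ABCA4 in empty vector replicate 4 had a log2(TPM + 1) of 3.75, and the other 3 lay between 3.55 and 3.56. ABCA3 in Siglec-XII replicate 4 had a log2(TPM + 1) of 1.68, and the other 3 lay between 1.88 and 1.89. In both groups the other 3 samples were unusually close together, and the gaps are 0.2 or less on the log2 scale.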

How the results depend on the processing

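Over 18 alternatives no member had an adjusted p under 0.05 in limma, the lowest being 0.0964 (ABCA7 without empty vector replicate 2). The members higher at an unadjusted p of 0.05 or less numbered 1 under quantile normalization, equal upper quartiles and without the mitochondrial and 100 most abundant entries, in place of 3, and 1 to 3 when a sample was left out. Quantile normalization gave 1 lower member, ABCA4. The median log2 fold change of the members, 0.03 in the main fit, changed sign in some alternatives. It was -0.04 under quantile normalization, -0.03 with equal upper quartiles and -0.04 without the abundant entries. The medians of all tested entries there were 0.01, 0.01 and 0.03. With a sample left out the member median ran from -0.02 to 0.07. With entries of 1 symbol summed the member median was 0.00, and 2 of 23 tested members were higher at an unadjusted p of 0.05 or less. ABCA7 kept an unadjusted p of 0.05 or less in all 18, with a log2 fold change of 0.34 to 0.58, ABCF1 did in 9 (0.04 to 0.23) and ABCF2 in 10 (0.12 to 0.23). The ratio of summed TPM was 1 with equal upper quartiles, 1.02 without the abundant entries and 1.02 to 1.06 with a sample left out. Empty vector replicate 1 was the lowest sample of that sum and of ABCE1, ABCG2 and ABCA7. Without it the ratio was 1.02, and these genes had log2 fold changes of 0.04, 0.04 and 0.34, in place of 0.08, 0.10 and 0.47. That of ABCF2 was 0.22, in place of 0.19. The log2 fold change of ABCD4 was -0.02 under quantile normalization and -0.01 with equal upper quartiles, and -0.02 to 0.12 with a sample left out. That of ABCD3 was -0.07 under both scalings and -0.05 to 0.03 with a sample left out. The other 10 named members did not change sign. The same-numbered samples did not deviate together (correlations of -0.074 to 0.059), and the replicate block gave 0 members at an adjusted p under 0.05 and 2 higher at an unadjusted p. Of all entries 101 had an adjusted p under 0.05, against 51 without a filter, 23 without small structured RNAs, 54 without the trend and 49 to 159 with a sample left out. Depth is unknown, and the 24 members below the filter were fitted only with every entry above 0 included, where none had an adjusted p under 0.05.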
